A study of Rattus norvegicus with 3 samples.

Results

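The chaperonin TCP-1 ring complex (CCT, also called TRiC) is the folding chamber of the eukaryotic cytosol. Its subunits were followed here through 3 protein fractions of a Myc and a vector line of fibroblasts. Members were the protein entries whose Swiss-Prot name before the species suffix is TCP1, or TCP with 1 of the letters A, B, G, D, E, Z, H or Q, such as TCPG. The rule used names only and no measured value. It found 14 of the 1053 distinct entries, namely 10 of 620 in the soluble, 4 of 400 in the chromatin and 7 of 207 in the mitochondrial table. The soluble table held all 8 subunits, alpha (the entry name TCP1), beta (TCPB), gamma (TCPG), delta (TCPD), epsilon (TCPE), zeta (TCPZ), eta (TCPH) and theta (TCPQ). Epsilon and eta each had both a human and a mouse entry there. Subunit names are a reading of these entry names from general knowledge, because the tables do not spell them out. The cells are rat, so a rat peptide is listed under whichever human or mouse entry the search assigned.

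The 8 subunits are related ATPases that alternate in a fixed order around each of a pair of stacked rings, with a cavity inside each ring. Newly made actin and tubulin enter the cavity, often handed over by the co-chaperone prefoldin, and leave folded after ATP hydrolysis closes and reopens a built-in lid. Each subunit takes 1 place per ring, and subunits can also occur outside the ring.

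Rat1_Myc cells, rat fibroblasts that carry Myc, were compared with Rat1_vector cells, the same established line with the vector alone, and both were kept without serum for 12 h. Myc is a transcription factor that drives growth, and cells with high Myc tend to undergo apoptosis without serum. In each fraction, protein of the vector cells carried the light and protein of the Myc cells the heavy isotope-coded affinity tag (ICAT), which attaches to cysteine, so every value is an abundance ratio of Myc over vector, and 1 means equal. The soluble and chromatin mixtures held 2.5 mg and the crude mitochondrial mixture 250 ug of protein per label. Each fraction was 1 mixture without a label swap, so there is no replicate and no p-value, and a difference between the reagents and a difference between the cells cannot be told apart. Each ± is the authors' deposited standard deviation of a ratio within 1 mixture. Nothing in the labels says how the Myc line was made or whether it is a single clone, and 0 entries were named for Myc itself.

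Of all entries, 542 soluble, 364 chromatin and 201 mitochondrial ones had a protein ratio, with medians of 1.34, 1.24 and 1.15. The deposited ratios therefore lay above 1 on balance in every fraction, and whether the authors centred them is not given in the sources used here. Most ratios had 1 peptide as their only support, namely 69.0% of soluble, 71.4% of chromatin and 66.7% of mitochondrial ratios. Fibroblast entries such as SPARC, fibronectin, vimentin and collagens were present, and entries of an epithelial marker list numbered 0 in each fraction. The fractions overlapped: 3 mitochondrial marker entries were measured in the soluble and 5 in the chromatin table, and the glycolytic enzyme ENOA_MOUSE was measured in the mitochondrial one. In place of a test, an entry was called higher at a ratio of 1.5 or above, and lower at 1 over 1.5 or below, provided that the log ratio was also more than 2 deposited errors away from 0. The error on that scale was SD over ratio, and distances below are counted in such errors from a ratio of 1.

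In the soluble fraction all 10 chaperonin entries had a ratio above 1, as most soluble entries did. The lowest of them, human eta at 1.168, had 39.7% of all soluble ratios below it. By the rule, 5 of the 10 were called higher. They were gamma, theta, the mouse entries of eta and epsilon, and delta, at ratios from 1.68 to 2.72. The same call was made for 30.6% of all soluble entries, and 0 chaperonin entries were called lower, against 8.12% of all. The chaperonin median was 1.73, or 1.62 when each subunit was counted once, beside 1.34 for the whole fraction, and 9 of the 10 entries lay above that fraction median. The ratios of the 10 entries varied less among themselves than those of all entries, with a log2 SD of 0.38 beside 0.84. These groups are not alike, since the deposited peptide number was 1 for 3 of the 10, beside 69.0% of all soluble ratios. The 10 entries also cover only 8 subunits, and those of delta and human epsilon share 3 measurements. After division by the fraction median, gamma, theta and mouse eta were called higher, 3 of 10, beside 12.9% of all entries.

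**Figure D1:**
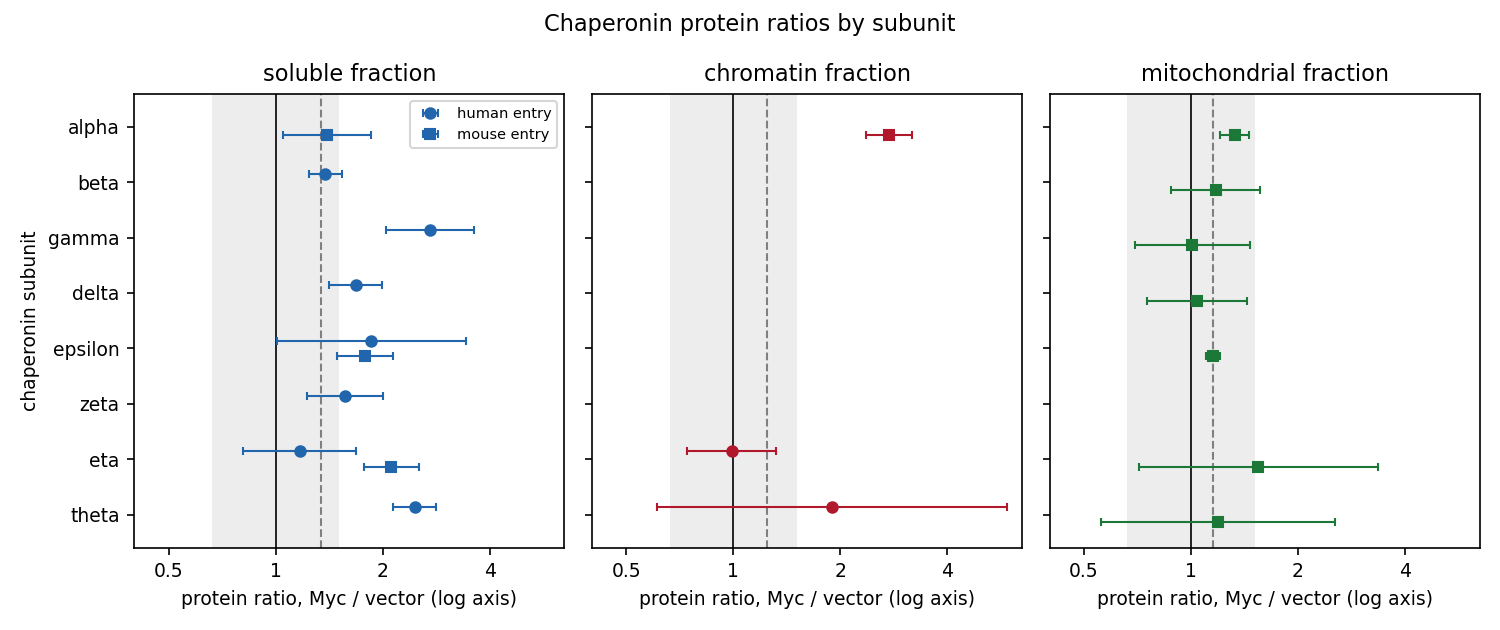
Protein ratio of Myc over vector on a log axis for each chaperonin subunit in the soluble, chromatin and mitochondrial fractions, with circles for human and squares for mouse entries. Bars span the ratio divided and multiplied by the exponential of SD over ratio, the shaded band runs from 1 over 1.5 to 1.5, the solid line marks 1 and the dashed line the median of the fraction. The soluble entries run from 1.168 to 2.720, and the 7 mitochondrial entries from 1.009 to 1.547.

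Gamma was the highest soluble subunit, at 2.72 ± 0.772 (TCPG_HUMAN), rank 40 of 542. Its value rested on 5 peptides and 29 table lines, of which 23 had a ratio. The 10-residue peptide gave 3.901 ± 0.602 and 5.337 ± 0.556. Both of these lay above the subunit's own protein ratio. The 13-residue peptide gave 8 ratios from 1.24 to 6.218 with a median of 1.57, and the 14-residue peptide gave 1.913 and 2.378. The 16-residue peptide had 14 lines, 6 of them coded as not measured, and its other lines ran from 0.813 to 9.843 with a median of 1.24. The 17-residue peptide gave 1.604 ± 0.368 and 4.896 ± 2.517. The peptides of gamma thus disagreed, and a plain median over its 23 lines was 1.64, below the deposited 2.72.

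Theta stood at 2.465 ± 0.345 (TCPQ_HUMAN), rank 61, and its 10 lines all came from 1 peptide of 16 residues. Those lines held 8 distinct measurements from 1.558 to 3.704, with a median of 2.67. Every line of theta therefore lay above 1.5, and the SD of the protein ratio was 14.0% of its value. The form of this peptide with an oxidised methionine gave the least precise of them, at 3.428 ± 3.502. The theta subunit has been tied in human pluripotent stem cells to their high chaperonin level.

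Eta was listed under 2 entries. The mouse entry, at 2.115 ± 0.375 (TCPH_MOUSE, rank 94), rested on 1 line of a 7-residue peptide and was called higher. The human entry, at 1.168 ± 0.430 (TCPH_HUMAN, rank 326), was the lowest chaperonin entry of the fraction. Its deposited peptide number was 5, with the oxidised form of a 21-residue peptide counted apart, and 44 of its 51 lines had a ratio. These entries of 1 subunit lay 1.81-fold and 1.45 combined errors apart, short of the 2 errors that the rule asks for. Within the human entry, a 9-residue peptide alone had 27 lines, and its 25 ratios ran from 0.249 to 6.276 with a median of 1.71. That spread was 25.2-fold, while the median SD deposited for a single line was 1.83% of the ratio. Of these lines, 6 carry a question mark, at 0.249 to 2.079, and the 19 unmarked ones ran from 0.919 to 6.276, a 6.83-fold spread with the same median of 1.71. A 13-residue peptide gave 2.303 to 2.637 on 6 unmarked lines and 6.991 on a line with a question mark. A 21-residue peptide gave 0.917 to 3.465 in its plain form, and 0.444 and 2.087 with an oxidised methionine. The other 9-residue peptide gave 0.662. The median over the 44 lines with a ratio was 1.78, above the deposited 1.168, so the position of eta depended on how its lines were combined.

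Epsilon also had 2 entries, which lay close together, 1.04-fold apart. The human entry stood at 1.858 ± 1.136 (TCPE_HUMAN, rank 135) and was not called because of its wide error, and the mouse entry stood at 1.784 ± 0.319 (TCPE_MOUSE, rank 148) and was called. The mouse entry had 1 peptide of 13 residues whose ratios of 1.673, 1.916 and 1.995 were close to each other. In the human entry a 14-residue peptide gave 0.789 ± 0.019, 1.505 ± 0.310 and 2.684 ± 0.082. These lines lay further apart than their own SDs, and 3 more lines of that peptide were coded. Mutation of the epsilon subunit causes a hereditary sensory neuropathy in people.

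Delta stood at 1.679 ± 0.287 (TCPD_HUMAN, rank 169) and was called higher, but its 3 peptides did not share a side of 1. The 10-residue peptide gave 7 ratios, all above 1, from 1.147 to 2.851. The 12-residue peptide gave 0.326 ± 0.215, 0.703 ± 0.036 and 1.901 ± 0.574. The 11-residue peptide gave 0.263 ± 0.071 on a single line that carries a question mark in the table. Taken as a geometric mean over its 3 peptides, the marked line included, delta was 0.681, on the other side of 1 from the deposited ratio. The deposited ratio counts 2 peptides, and the median over distinct unmarked measurements was 1.56. A mutation of the delta subunit gene in the rat also leads to a sensory neuropathy.

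The 10-residue peptides of delta and epsilon differ at 1 position, where one has isoleucine and the other leucine, and these residues have the same mass. Of 6 distinct measurements of the delta peptide and 4 of the epsilon peptide in the soluble fraction, 3 were the same values, 1.147 ± 0.178, 1.561 ± 0.182 and 1.950 ± 0.817. So part of the soluble ratios of TCPD_HUMAN and TCPE_HUMAN rests on the same measurements, and these entries are not independent there. The remaining epsilon value was 7.819 ± 0.357, and the largest remaining delta value was 2.851 ± 1.237. In the mitochondrial fraction the same peptide pair shared 0 measurements.

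Zeta, alpha and beta were not called. Zeta stood at 1.572 ± 0.387 (TCPZ_HUMAN, rank 199), on 5 lines of 1 peptide of 15 residues that held 2 distinct values, 1.321 and 1.928. Its fold was large enough for the rule, and its distance from 1 was 1.84 errors, just short. Alpha, the subunit after which the complex is named, stood at 1.395 ± 0.400 (TCP1_MOUSE, rank 255), with its 10-residue peptide between 1.216 and 1.685 and its 12-residue peptide at 0.500 ± 0.320 and 1.043 ± 0.051. Beta stood at 1.381 ± 0.150 (TCPB_HUMAN, rank 260), with lines from 1.151 to 1.662. Beta lay 2.97 errors from 1 and missed the call by its fold alone. Outside the ring, beta is also known as a receptor that takes protein aggregates into autophagy.

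Compared with each other, the soluble subunits seldom separated by the rule. Of 43 pairs of entries from different subunits, 3 were apart, meaning a fold of 1.5 or above and a gap of more than 2 errors, the errors of both entries combined. Over all pairs of soluble entries the share was 37.4%. All 3 set beta against a higher subunit: gamma was 1.97-fold, theta 1.78-fold and mouse eta 1.53-fold above it. The chaperonin errors were wider, with a median SD of 21.2% of the ratio beside 15.4% over all soluble entries. Gamma over human eta, 2.33-fold at 1.82 errors, and theta over human eta, 2.11-fold at 1.90, fell short on error alone. Of the 6 entries ranked nearest to each of the 7 highest chaperonin entries, 4 to 6 were called higher by the same rule. Around alpha, beta and human eta 0 of 6 were. Rank largely fixed this contrast, because a call needs a ratio of 1.5. The neighbours of alpha, beta and human eta had ratios of at most 1.401 and could not be called. Those of the 7 highest had at least 1.556 and could miss a call only by their error.

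**Figure D2:**
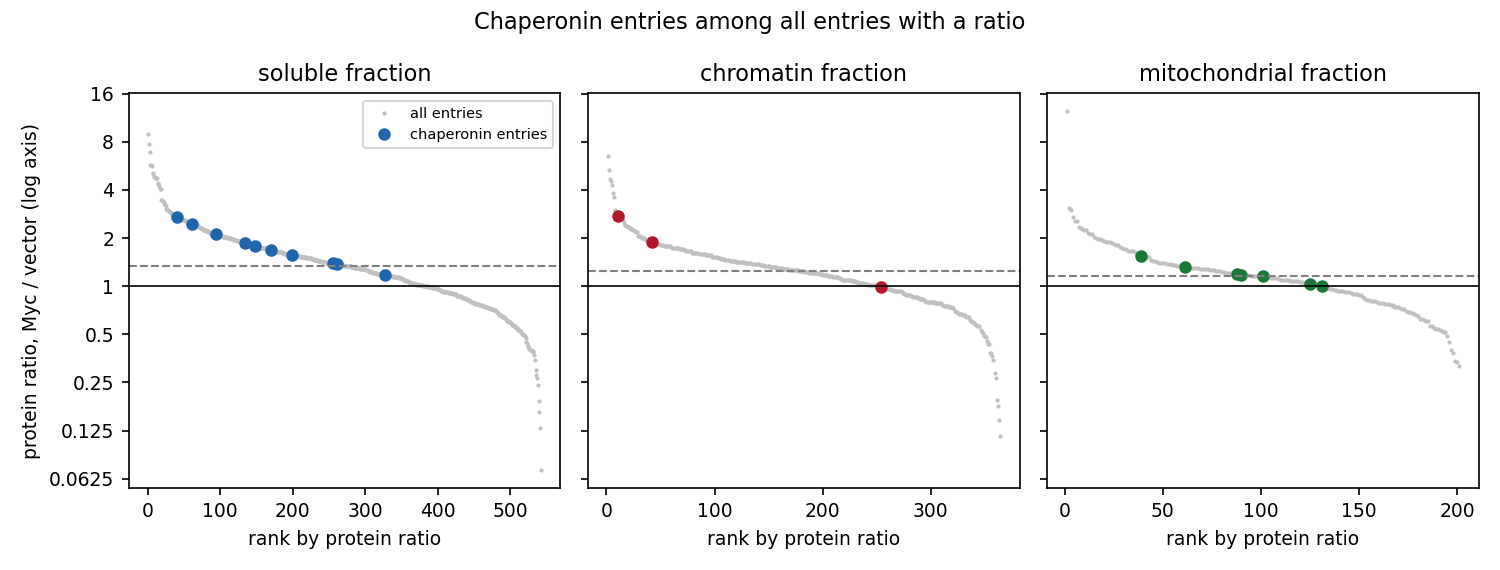
Protein ratios of all entries on a log axis against their rank in each fraction, in grey, with the chaperonin entries as large points and the median of the fraction dashed. The soluble chaperonin entries lie between ranks 40 and 326 of 542, and the highest chromatin one, alpha, at rank 11 of 364.

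The chaperonin was measured densely in the soluble table, where its 139 lines made up 3.85% of all lines, and in the mitochondrial table, where 49 lines made up 6.21%. In the chromatin table it had 8 lines, or 0.335%. Line numbers count identified spectra and are not amounts of protein. Lines coded as not measured made up 13.7% of the soluble chaperonin lines, beside 17.9% of all soluble lines, and 6.12% of the mitochondrial ones, beside 4.18%. Of the 8 chromatin lines 2 were coded, beside 12.1% of all chromatin lines. The heavy form, from the Myc cells, was the one identified in 53.2% of the soluble chaperonin lines, beside 57.6% of all, and in 40.8% of the mitochondrial ones, beside 46.6%. In the chromatin table it was identified in 5 of the 8, beside 45.9% of all.

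In the chromatin fraction 3 of the 4 chaperonin entries had a ratio, and alpha was called higher. Alpha stood at 2.741 ± 0.411 (TCP1_MOUSE), rank 11 of 364, on 1 peptide of 10 residues with lines of 1.616 ± 0.120 and 2.784 ± 0.155. It was also called relative to the fraction median. Other ways of deriving the alpha ratio gave 2.12 to 2.29, all below the deposited value by more than its SD. Theta stood at 1.894 ± 2.151 (TCPQ_HUMAN) on a single line whose SD exceeds the ratio. Eta stood at 0.991 ± 0.286 (TCPH_HUMAN), with lines of 0.797, 1.24 and 1.24 of its 9-residue peptide. Delta (TCPD_HUMAN) had 1 line, which was coded. The call rate over all chromatin entries was 20.3% for higher and 7.42% for lower, beside 1 and 0 of the 3 chaperonin entries. Alpha and eta lay 2.77-fold and 3.13 combined errors apart, the only one of the 3 pairs of chromatin entries past the rule.

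In the mitochondrial fraction the chaperonin ratios lay close to the fraction median, and 0 of 7 entries were called in either direction, beside 10.9% of all entries called higher and 7.46% called lower. The chaperonin median was 1.17 and that of the fraction 1.15, and 4 of the 7 entries lay above the latter. In order, eta stood at 1.547 ± 1.196 (TCPH_MOUSE), alpha at 1.327 ± 0.125 (TCP1_MOUSE), theta at 1.190 ± 0.904 (TCPQ_MOUSE) and beta at 1.174 ± 0.339 (TCPB_MOUSE). Below them, epsilon stood at 1.153 ± 0.050 (TCPE_MOUSE), delta at 1.039 ± 0.335 (TCPD_MOUSE) and gamma at 1.009 ± 0.375 (TCPG_MOUSE). Neighbours in this order did not separate, since 0 of the 21 pairs of entries were apart by the rule, beside 17.3% of all pairs. The largest fold between any of them was 1.53. Here too the chaperonin errors were wider, with a median SD of 32.2% of the ratio beside 26.1% over all mitochondrial entries. Zeta had no entry in this table. Alpha and epsilon lay 3.00 and 3.28 errors from 1 and missed the call by their fold.

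The mitochondrial values also hid wide spreads within a subunit. For eta, the 13-residue peptide gave 3.071 and 3.727 while the 16-residue peptide gave 0.704 and 0.760 and the 21-residue peptide 0.521. For theta, the 16-residue peptide gave 0.999 ± 0.072 and 1.084 ± 0.286 in its plain form, and 1.787 ± 1.305 and 3.268 ± 0.876 with an oxidised methionine. The plain theta peptide thus lay near 1 and its oxidised form higher, and 1 of the oxidised values had an SD of most of its size. For gamma, the 16-residue peptide ran from 0.235 to 1.982, and the 10-residue peptide stood at 3.119 on a marked line. For delta, 5 peptides with a ratio ran from 0.571 ± 0.371 to 1.650 ± 0.672 on unmarked lines, with 0.320 ± 0.129 on a marked line. Some of these SDs were wide, as for 0.588 ± 0.577.

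**Figure D3:**
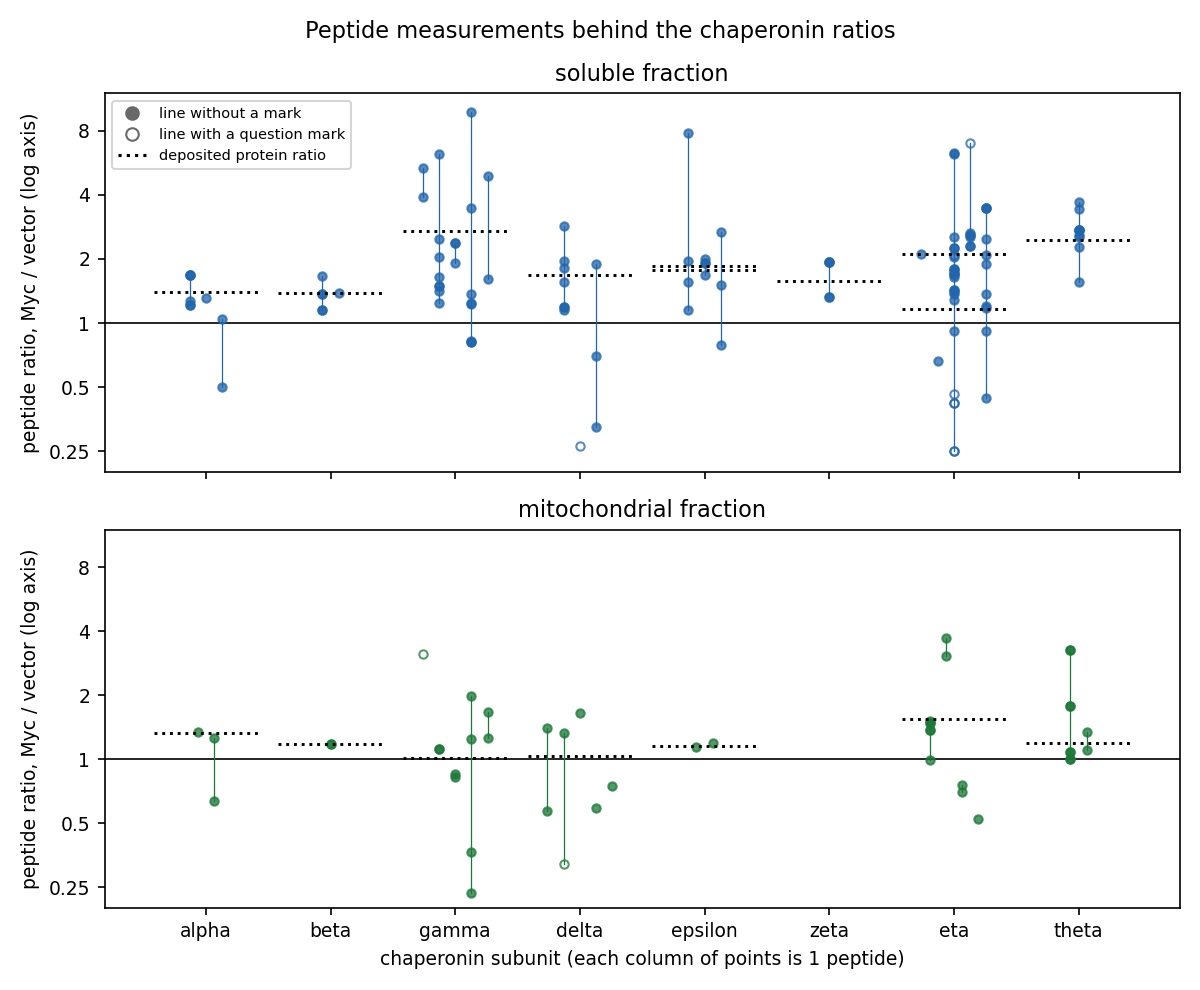
Peptide ratios of Myc over vector on a log axis in the soluble (top) and mitochondrial (bottom) fractions, with 1 column of points for each chaperonin peptide. Open points are lines with a question mark and dotted lines show the deposited protein ratio of each entry. The soluble eta peptide with the most lines runs from 0.249 to 6.276.

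Set side by side, 8 of 9 pairs of soluble and mitochondrial entries of a subunit had the larger ratio in the soluble fraction. The fraction medians, 1.34 and 1.15, lie the same way, and the share of all pairs in that direction was not counted. The mitochondrial entries of epsilon and eta each stand in 2 of the 9 pairs. By the rule, 2 of the 9 were apart. Of all 113 such pairs joined by entry name without its species suffix, 16.8% were apart. Gamma was 2.72 ± 0.772 in the soluble and 1.009 ± 0.375 in the mitochondrial fraction, 2.70-fold and 2.12 combined errors apart. The mouse entry of epsilon was 1.784 ± 0.319 against 1.153 ± 0.050, 1.55-fold and 2.37 errors apart. Once each fraction was divided by its median, 0 of the 9 were apart. Gamma then stayed 2.31-fold and mouse epsilon 1.33-fold higher in the soluble fraction, while alpha turned from 1.05-fold to 0.902-fold.

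The same peptides give a closer comparison, since the entries of a subunit can rest on different ones. Ratios in both of these fractions were present for 14 peptides of 7 subunits, and 11 of the 14 medians were larger in the soluble fraction, 7 of them by at least 1.5-fold. Over all 166 peptides of the tables with ratios in both, the shares were 66.9% and 44%. The median fold was 1.51, beside 1.31 over all. With each fraction divided by its median, 3 of the 14 stood 1.5-fold or more above, beside 25.3% of all, and the median fold was 1.29, beside 1.13. Theta's 16-residue peptide had a median of 2.73 over 10 soluble lines and 1.44 over 8 mitochondrial lines, with overlapping ranges. These lines held 8 soluble and 4 mitochondrial distinct measurements. In its plain form alone, the 9 soluble lines ran from 1.558 to 3.704 and the 4 mitochondrial lines from 0.999 to 1.084, without overlap. Those 4 lines held only the values 0.999 ± 0.072 and 1.084 ± 0.286, each on a heavy and a light line. Gamma's 10-residue peptide was at least 3.901 on its soluble lines and 3.119 on its mitochondrial line, and its 17-residue peptide had medians of 3.25 and 1.46. All soluble lines lay above all mitochondrial lines in 3 peptides, the 10-residue one of gamma and the 10- and 13-residue ones of epsilon, and below them in 1, the 11-residue one of delta. In each of these 4 peptides, 1 of the fractions had a single line. That line carries a question mark for gamma, at 3.119 ± 2.087, and for delta, at 0.263 ± 0.071. Over all shared peptides, 33.7% lay wholly above and 12% wholly below. Without oxidised forms, 5 of the 14 lay wholly above, theta's and eta's 21-residue peptide added, beside 38% of all. The other peptides with the smaller soluble median were alpha's 12-residue peptide, at 0.772 against 0.949, and eta's 13-residue peptide, at 2.58 against 3.40.

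**Figure D4:**
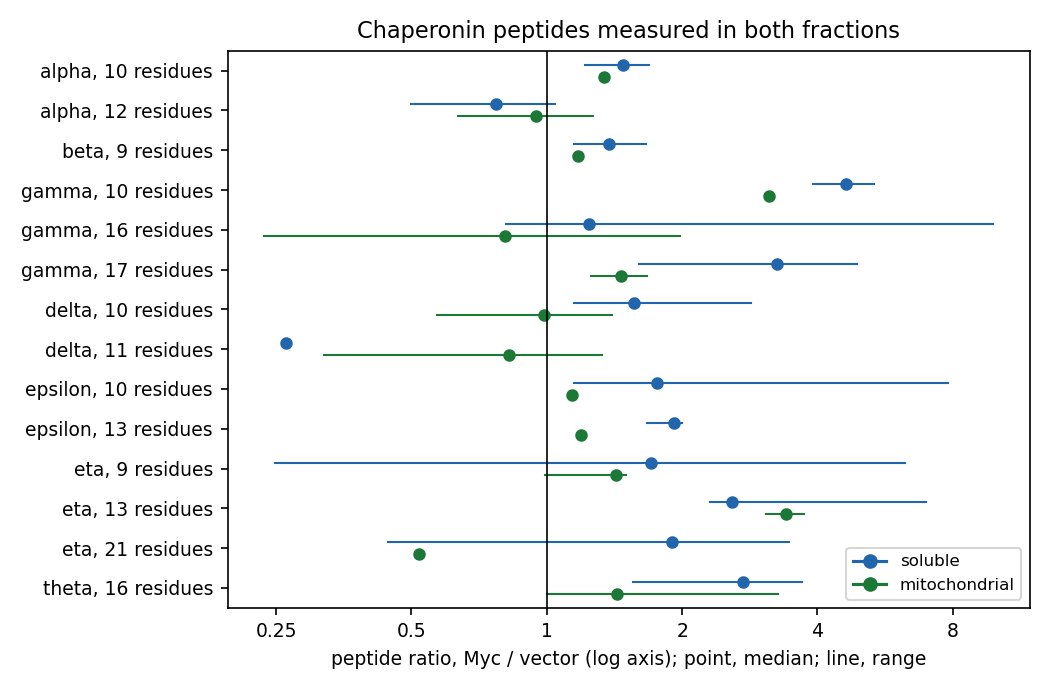
Median (point) and range (line) of the ratios of each chaperonin peptide measured in both the soluble and the mitochondrial fraction, on a log axis. For 11 of the 14 peptides the soluble median is the larger, and most ranges overlap.

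The chromatin values shared few peptides with the other fractions. Alpha was 2.741 ± 0.411 in the chromatin and 1.395 ± 0.400 in the soluble fraction, a soluble over chromatin fold of 0.509 at 2.09 combined errors. Against the mitochondrial 1.327 ± 0.125 the chromatin value was 2.07-fold higher, 4.10 errors apart. Both comparisons had 0 peptides in common. The chromatin peptide of alpha appeared in the soluble table only on 2 coded lines and not in the mitochondrial table. Both also used the deposited chromatin ratio, and they were not recounted with its lower alternatives of 2.12 to 2.29. Mouse eta in the soluble and human eta in the chromatin fraction were 2.13-fold apart, again with 0 shared peptides. In all, 2 of 4 chaperonin pairs were apart between soluble and chromatin, beside 22.1% of all 86 pairs, and 1 of 3 between chromatin and mitochondrial, beside 9.62% of all 52. The 2 peptides measured in both soluble and chromatin tables, of eta and theta, had a median fold of 1.41, and neither reached 1.5.

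Beyond their names, the members shared stretches of sequence. The 32 different peptides of the chaperonin entries were found in 0 entries outside the rule, with isoleucine and leucine read as one letter. Peptides of alpha, beta, delta and epsilon held a common run of 6 residues. ICAT sees only cysteine peptides, and with peptides that lie inside one another merged, they covered 3 stretches of alpha, 2 of beta, 4 of gamma, 5 of delta, 3 of epsilon, 1 of zeta, 6 of eta and 2 of theta. Some peptides had more than 1 distinct measurement. Of these, 12 of 18 soluble, 2 of 2 chromatin and 6 of 11 mitochondrial ones spread by at least 1.5-fold over their own lines. Lines with a question mark and oxidised forms were included in these spreads. The entry TCP2_MOUSE, outside the naming rule, was present on 2 coded soluble lines.

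Of the partners of the chaperonin, prefoldin, which delivers substrates, and the phosducin-like co-factors had 0 entries in all 3 tables. Actin, a main substrate, had 0 of 2 soluble entries called, at 1.63 ± 0.652 (ACTA_HUMAN) and 1.005 ± 0.292 (ACTB_HUMAN). In the chromatin fraction 1 of 3 actin entries was called higher (ACTB_HUMAN, 1.621 ± 0.182) and 1 lower (ACTG_HUMAN, 0.581 ± 0.060). In the mitochondrial fraction 1 of 3 was called lower (ACTS_HUMAN, 0.488 ± 0.133, on 1 peptide of probability 0.713), and the highest was ACTB_HUMAN at 1.388 ± 0.176. Actin medians were 1.28, 0.998 and 1.01 in the soluble, chromatin and mitochondrial fractions. The actins are nearly identical, so their peptides may be shared between entries.

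Tubulin, the other main substrate, had 1 of 5 soluble, 1 of 3 chromatin and 1 of 6 mitochondrial entries called higher and 0 called lower. The highest were TBB2_HUMAN at 1.685 ± 0.268, TBA2_HUMAN at 1.672 ± 0.334 and TBA1_ARATH at 1.642 ± 0.083, the last a plant entry name given to a peptide from these rat cells. The lowest were TBA6_HUMAN at 0.164 ± 0.210, TBB3_MOUSE at 1.246 ± 0.202 and TBA6_MOUSE at 1.278 ± 0.914. The soluble tubulin median was 0.992, below the soluble fraction median, and the chromatin and mitochondrial ones were 1.43 and 1.41. The beta subunits of G proteins, which the chaperonin also folds, had 0 of 6 entry values called over the 3 fractions. The soluble GBB1_HUMAN was 0.706 ± 0.030, the chromatin ones ran from 0.739 ± 0.281 (GBB4_HUMAN) to 1.350 ± 0.113 (GBB1_HUMAN), and the mitochondrial ones were 0.810 ± 0.027 (GBB2_MOUSE) and 0.968 ± 0.283 (GBB1_HUMAN).

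Other chaperones are given for comparison. Hsp60, the chaperonin of mitochondria, was called higher in the soluble fraction in both its entries, at 2.601 ± 0.179 (CH60_MOUSE) and 2.574 ± 0.308 (CH60_HUMAN). Without a call, its chromatin entry stood at 0.750 ± 0.189 and its mitochondrial entry at 1.882 ± 0.780. Cytosolic Hsp70 proteins bind unfolded chains, and the soluble entries listed under them by name were those of HS7C and HS74. Of these, 1 of 4 was called higher (HS7C_HUMAN, 2.86 ± 0.810), and the lowest was HS74_MOUSE at 0.816 ± 0.245. The mouse entry of HS7C stood at 1.17 ± 0.263 in that fraction without a call. In the chromatin and mitochondrial fractions HS7C stood at 0.802 ± 0.078 and 0.717 ± 0.157. Of Hsp90 and its co-chaperones, 3 of 4 soluble entries and 2 of 3 mitochondrial ones were called higher, and the chromatin table had 0. The soluble ones ran from 1.509 ± 0.145 (HS9B_HUMAN) to 2.646 ± 1.615 (IEFS_HUMAN, not called), and the mitochondrial ones from 0.935 ± 0.402 (P23_MOUSE) to 1.734 ± 0.100 (HS9A_MOUSE).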

How the data were processed

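Per the labels' protocols, tagged peptides were digested with trypsin, separated by cation exchange and biotin, measured by microcapillary liquid chromatography and tandem mass spectrometry, and searched against rat, mouse and human proteins from NCBI. PeptideProphet and ProteinProphet scored identifications, and ASAPRatio gave peptide and protein ratios. Versions are not given in the sources used here. Each deposited table has 1 line per peptide with its probability (the lowest was 0.502), entry, peptide, linear ratio and SD. Per the authors' legend, 0, 9999 and -1 stand for peaks that were not detected. Coded lines were left out of every ratio and counted, and the meaning of a question mark on some lines is not given.

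Deposited protein ratios and SDs were used as they stand. The deposited number of peptides equalled the number of unmarked peptide forms in 1066 of 1107 entries and in 20 of 20 chaperonin entries. Lines of a peptide whose ratios agreed within 0.5% and whose SDs agreed within 0.002 were counted as 1 distinct measurement. Entries were joined between fractions by name without the species suffix. The members, lists and rules were chosen with earlier results of these data known. Every chaperonin entry is named, with the highest and lowest of each related list. Alternatives varied the error rule, the fold, the peptide number, the probability, the centring and the averaging of lines, and those on distinct, marked or oxidised measurements, on peptides of different sequence and on centred peptide folds were added after the data were seen. The plan to match peptides to reference proteins was not carried out, and peptides were compared between entries instead. The rule for higher and lower calls was run on simulated ratios with normal noise of the size of the deposited soluble errors. The rule assumes errors of that size. The run therefore cannot show how the rule fares where lines of a peptide spread beyond their SDs. Python 3.11.15, numpy 2.4.6, pandas 2.3.3 and matplotlib 3.10.9 were used.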

Additional observations from a re-analysis of the deposited data

Results flagged for a closer look

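The eta subunit lay on opposite sides of 1 in different fractions, each a single mixture, and the difference was not tested. Only the chromatin value, 0.991, lay below 1, and it lay above 1 in 5 of 6 other ways of deriving it, at 1.02 to 1.24, and below in the other, at 0.798 after centring. Its single line below 1 stood at 0.797 with an identification probability of 0.592. The human entry was 1.168 ± 0.430 in the soluble and 0.991 ± 0.286 in the chromatin fraction, 0.351 combined errors apart. The mouse entry was 2.115 ± 0.375 in the soluble fraction, 2.24 errors from that chromatin value with 0 shared peptides. The mitochondrial mouse entry was 1.547 ± 1.196, 0.540 errors from the chromatin 0.991.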

How the results depend on the processing

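Over the alternatives, 94 single protein ratios moved by less than the deposited SD and 23 by more, some uncalled entries near 1 crossing it among them. Another 3, of a called entry, changed sides of 1. All 3 were soluble delta (deposited 1.679), each with the marked 0.263 line counted. It was 0.681 as a geometric mean over distinct peptides and 0.936 as an error-weighted mean. A probability of at least 0.9 also gave 0.681, the same calculation, because no delta line was removed. Entries with 1 distinct measurement, such as soluble mouse eta at 2.115, could move only by centring. Their other alternatives count among the 94. Of the counts and medians, 36 stayed within 1.5 times the reported count or within 1 SD of the reported median over entries or peptides, and 15 moved further. The soluble count of 5 higher entries became 3 with a fold of 2, 3 after centring, 3 with at least 2 peptides and 2 with at least 2 of different sequence, since theta's 2 are forms of one sequence, and the soluble median log2 ratio of 0.79 became 0.36 after centring. The chromatin count of 1 became 2 without the error rule and 0 with at least 2 peptides (0 also with different sequences), and the mitochondrial count of 0 became 1 with a fold of 1.3 and 1 without the error rule. With identical entry names, the pairs apart were 1 between soluble and chromatin and 1 between soluble and mitochondrial, each 2 otherwise, and after centring the latter was 0. The median fold of peptides shared by soluble and chromatin was 1.57 on distinct unmarked measurements and 1.303 after centring, against 1.41. No paired analysis was possible because each fraction is 1 mixture and the labels give no replicate numbers, and no replicate could be left out. Each of the 3 quantified chromatin entries rests on 1 peptide.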

Other observations

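Myc binds DNA at the E-box, whose common form has the letters CACGTG. In RefSeq promoters of the rat assembly GRCr8, windows from 250 bases before to 50 bases after the start, 0 of 9 promoters of the chaperonin genes held CACGTG, beside 6.42% of all 33469 promoters. The looser letters CANNTG, which include CACGTG, were in 6 of 9, beside 72.1% of all. Each motif reads the same on both strands, and a window without them says nothing of binding elsewhere. The 9 promoters belong to the genes of the 8 subunits, zeta having a second gene that is used in testis.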
